A study of Homo sapiens with 3 samples.

Results

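The genes described are 10 genes for proteins that carry amino acids across membranes, SLC1A4, SLC1A5, SLC3A2, SLC7A1, SLC7A5, SLC7A6, SLC38A1, SLC38A2, SLC38A10 and SLC43A1. They were taken by name from 62680 rows of a gene table, and all 10 were among the 12270 genes compared. The list was chosen with earlier results of these data known, so it may not be independent of their values. The cells were HepG2, an established human line from a liver carcinoma, labelled wild type. Each of 3 treatments is 1 library: A740003 at 20 µM, A438079 at 20 µM, and PBS, all for 48 h. The labels name both compounds as antagonists of P2X7, an ATP-gated ion channel, and PBS as the control. In which solvent the compounds were dissolved is not stated in the labels.

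With 1 library per treatment, no difference has a replicate check and no test of a treatment was possible. Levels between genes are given as FPKM, the authors' values scaled for gene length and library size. Differences between libraries are given as ratios of expected counts scaled for library size, with 95% intervals that cover counting error only. Genes were called higher or lower where the ratio reached 1.5-fold in that direction and its interval left out 1. The libraries held 19735540, 19606723 and 19375462 counts for A740003, A438079 and PBS. All 12 markers of hepatocyte-like carcinoma cells were measured among the genes compared, with ALB at 95722, 120012 and 125391 counts in that order. COL1A1, DCN, CDH5, VWF, PTPRC and CD3E, which mark fibroblasts, endothelium and leukocytes, were at 0 counts in all 3 libraries, although LYZ was at 18310 to 20090 counts.

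Amino acids cross the plasma membrane by exchange, by cotransport with sodium or by facilitated passage, and each carrier takes a set of them. SLC3A2 is a heavy chain that brings several SLC7 light chains to the membrane, among them SLC7A5, which exchanges large neutral amino acids such as leucine for others such as glutamine. SLC1A5 and SLC38 carriers supply the glutamine that is exchanged, and leucine inside the cell activates the kinase complex mTORC1. Many of these genes are induced when amino acids run short, through ATF4 and related factors that bind C/EBP-ATF composite elements. In the normal liver SLC7A5 is scarce, and it is commonly abundant in liver carcinoma cells.

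The start sites of these genes were read for that element, since it is the sequence by which several of them are known to be controlled together. Windows of 300 bases, from 250 before to 50 after each RefSeq start site on GRCh38.p14, were searched on both strands for TGATGNAA, whose reverse reads TTNCATCA. No other motif was searched. A match lay in 5 of the 17 windows of the 10 genes (29.4%), against 3.62% of 35116 windows in all and 1.97% of the 13532 windows of genes compared. The 5 matches are shown 5′ to 3′ on the strand of the gene, each in 30 bases, with the motif in capitals. They lie at chr2:64989381-64989410 (plus strand) for SLC1A4, chr19:46784893-46784922 (minus) for SLC1A5, chr11:62881719-62881748 (plus) for SLC3A2, chr13:29595663-29595692 (minus) for SLC7A1 and chr12:46266502-46266531 (minus) for SLC38A1.
SLC1A4: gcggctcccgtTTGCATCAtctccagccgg
SLC1A5: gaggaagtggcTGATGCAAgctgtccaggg
SLC3A2: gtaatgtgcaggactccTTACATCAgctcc
SLC7A1: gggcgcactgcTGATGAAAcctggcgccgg
SLC38A1: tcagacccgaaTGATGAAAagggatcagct
In SLC1A4 and SLC3A2 the motif reads in reverse. Apart from SLC7A1, the genes with a match also have start-site windows without one. Their matched start sites are 64989399 (SLC1A4), 46784814 (SLC1A5), 62881699 (SLC3A2) and 46266516 (SLC38A1), all inside the gene bounds given below. Which start sites these cells use was not tested. No window of SLC7A5, SLC7A6, SLC38A2, SLC38A10 or SLC43A1 held these letters, which says nothing of sites elsewhere. Of the 5 genes with a match, SLC1A4, SLC1A5, SLC3A2 and SLC7A1 had intervals below 1 for both antagonists over PBS, as the values below show. SLC38A1 had intervals above 1. Of the genes without a match, SLC7A5 and SLC38A10 had intervals below 1 for both antagonists, and SLC38A2 above 1. Those of SLC7A6 and SLC43A1 included 1. Over all genes compared, 26.7% had intervals below 1 for A740003 and 23.2% for A438079, and 26.2% and 22.9% had intervals above 1. A link between the motif and the ratios was not tested.

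All 10 genes had a mean above 5 CPM (counts scaled to a common library size), and their FPKM spanned more than an order of magnitude. SLC38A2, a sodium-coupled carrier of small neutral amino acids, was first in every library at 143.31 FPKM with A740003, 138.67 with A438079 and 128.83 with PBS. SLC3A2 followed at 91.55, 92.59 and 117.71 FPKM, and SLC1A5 in place 3 at 41.25, 41.91 and 53.64 FPKM. SLC38A10 was the lowest of the 10 in every library. The order in between was not the same in the 3 libraries: SLC7A5 was in place 5 with PBS, in place 6 with A438079 and in place 7 with A740003. Summed over the 10 genes, FPKM was 413.57 with PBS, 375.69 with A438079 and 367.38 with A740003, while summed counts were close at 25811, 25458 and 25444. SLC38A2 made up 31.2% of the summed FPKM with PBS, 36.9% with A438079 and 39.0% with A740003. Without SLC38A2, the genes summed to 791 CPM with PBS, 731 with A438079 and 678 with A740003.

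**Figure D1:**
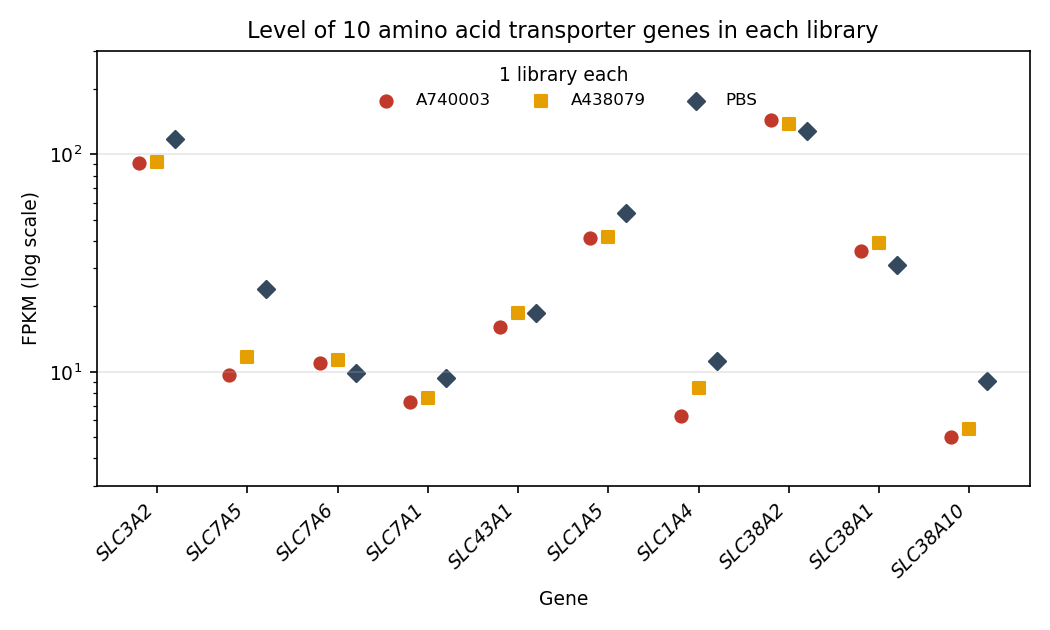
FPKM of the 10 transporter genes on a log scale, 1 point per library (A740003, A438079 and PBS), with no error because each treatment has 1 library. SLC38A2 is at the top in all 3 libraries and SLC38A10 at the bottom, and the PBS point of SLC7A5 (24.06 FPKM) stands apart from its antagonist points (9.64 and 11.66 FPKM).

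In A740003 over PBS, 3 of the 10 genes were called lower, namely SLC7A5, SLC38A10 and SLC1A4. Over all 12270 genes compared, 10.7% were called lower and 3.14% higher. The 10 genes are few, and SLC7A5 and SLC38A10 have transcripts in the group richest in GC, of which 29.5% were called lower. With a trend in GC content and length taken out, as described below, 1 of the 10 was called lower, against 6.73% of all genes. None of the 10 was called higher. In A438079 over PBS, 2 of the 10 were called lower, SLC7A5 and SLC38A10, against 9.44% of all genes, and none higher, against 1.63%. The median log2 ratio of the 10 genes was -0.29 for each antagonist, where that of all genes was 0.00 for both; with the trend taken out it was -0.057 for A740003 and -0.0022 for A438079. The comparisons share the PBS library, so an unusual value there enters both. In these bulk samples a change in the RNA per cell cannot be told apart from a change in the number of cells that express a gene.

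**Figure D2:**
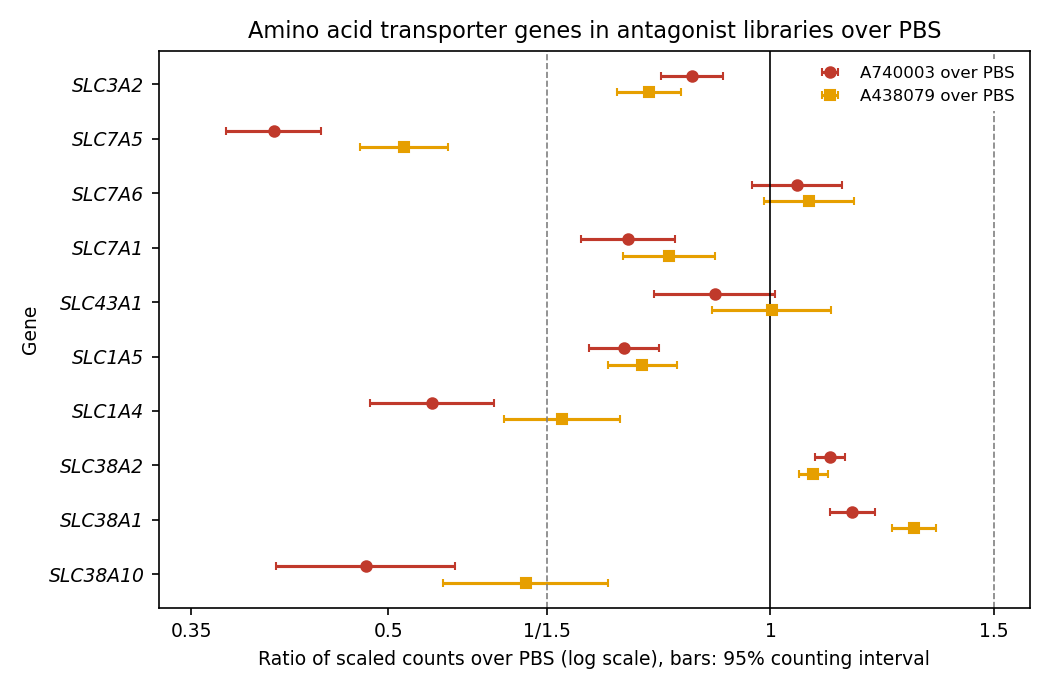
Ratios of scaled counts over PBS for the 10 genes on a log scale, with circles for A740003, squares for A438079 and bars for 95% counting intervals. The dashed lines mark 1.5-fold either way: SLC7A5 and SLC38A10 lie beyond the lower line for both antagonists, SLC1A4 for A740003, and no gene beyond the upper line.

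SLC7A5 (ENSG00000103257; chromosome 16, 87830023 to 87869488, minus strand, GENCODE release 29 on GRCh38) had the lowest count ratios over PBS among the 10 genes, although not with the trend in GC content and length taken out, where SLC1A4 or, with medians over coding transcripts, SLC38A10 was lowest. It had 748 counts with A740003, 922 with A438079 and 1795 with PBS. Both antagonist libraries were far below PBS, with ratios of 0.406 (0.373 to 0.443) for A740003 and 0.515 (0.475 to 0.557) for A438079. Of all genes compared, 3.06% had as low a log2 ratio or lower for A740003, and 4.13% for A438079. The pseudogenes SLC7A5P1 and SLC7A5P2 were at 0 to 3 counts. The 250 bases before the annotated start, chr16:87869508-87869757 on the minus strand, are shown for the gene with the lowest ratios; CG dinucleotides, 34 in number, are in capitals and 79.6% of the bases are G or C. These bases have no part in the GC values given below, which are those of transcripts.
SLC7A5: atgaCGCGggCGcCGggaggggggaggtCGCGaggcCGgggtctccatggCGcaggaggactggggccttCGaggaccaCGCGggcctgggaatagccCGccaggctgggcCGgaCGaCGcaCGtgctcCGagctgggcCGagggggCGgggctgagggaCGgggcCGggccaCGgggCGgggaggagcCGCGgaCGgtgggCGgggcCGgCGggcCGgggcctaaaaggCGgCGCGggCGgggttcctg

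SLC3A2 (ENSG00000168003; chromosome 11, 62856102 to 62888875, plus strand), the heavy chain that SLC7A5 needs at the membrane, was less far from PBS than its partner in count ratio. It had 2353 counts with A740003, 2120 with A438079 and 2647 with PBS. The ratios were 0.867 (0.82 to 0.917) and 0.802 (0.758 to 0.85), below 1 and not called. With the trend in GC content and length taken out, SLC3A2 stood at log2 values of -0.18 and -0.24, and SLC7A5 at -0.58 and -0.38. With lengths implied by the deposited values, SLC3A2 stood at -0.18 and SLC7A5 at -0.30 for A740003. For A438079 the order turned, at -0.22 for SLC3A2 and -0.16 for SLC7A5. The mean transcript length implied by the deposited counts and FPKM was 1302 bases for SLC3A2 with A740003 and 1161 with PBS, so its FPKM ratio for A740003 was lower than its count ratio, at a log2 value of -0.36 against -0.21.

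SLC7A6 (ENSG00000103064; chromosome 16, 68264516 to 68301823, plus strand), a light chain of SLC3A2 that exchanges cationic for neutral amino acids, did not share the low values of SLC7A5. It had 1226, 1220 and 1139 counts with A740003, A438079 and PBS, and both intervals included 1, with ratios of 1.05 (0.968 to 1.14) and 1.07 (0.989 to 1.16). Its counts were not whole, and SLC7A6OS, named for its place on the strand opposite SLC7A6, had 484.31, 459.03 and 397.98 counts; reads of the pair may have been split. The 2 light chains stood in different proportion in the 3 libraries. With PBS, SLC7A5 had 1.58 times the counts of SLC7A6, whereas with A740003 it had 0.610 times and with A438079 0.756 times. Part of that gap went with the trend in GC content and length: with it taken out, log2 ratios over PBS were -0.58 for SLC7A5 and -0.01 for SLC7A6 with A740003, against -1.30 and 0.07 before, and -0.38 and 0.04 with A438079, against -0.96 and 0.10. Of the FPKM summed over 6 genes for light chains that pair with SLC3A2 (SLC7A5, SLC7A6, SLC7A7, SLC7A8, SLC7A10 and SLC7A11), SLC7A5 held 54.6% with PBS, 33.5% with A438079 and 29.98% with A740003. SLC7A11, the light chain of the cystine-glutamate exchanger, had 1670, 1526 and 1215 counts and ratios of 1.34 (1.24 to 1.44) and 1.26 (1.17 to 1.36), above 1 and not called. SLC7A7 was at 6, 7 and 1 counts, and SLC7A8 was at 0 in all 3 libraries, which allows up to 0.151 to 0.155 CPM (3 counts). Summed over the 6 light chains, FPKM was 32.15 with A740003, 34.77 with A438079 and 44.05 with PBS, and SLC3A2 stood at 2.85, 2.66 and 2.67 times that sum.

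SLC7A1 (ENSG00000139514; chromosome 13, 29509410 to 29595688, minus strand), the widely expressed carrier of arginine and lysine, had 986 counts with A740003, 1034 with A438079 and 1245 with PBS. Both antagonist libraries were below PBS, at ratios of 0.772 (0.71 to 0.84) and 0.832 (0.765 to 0.904), and neither was called. SLC7A2, the related cationic carrier of liver, lay the other way with 2567, 2511 and 2092 counts and ratios of 1.20 (1.13 to 1.27) for both. SLC43A1 (ENSG00000149150; chromosome 11, 57484534 to 57515786, minus strand), a facilitated carrier of large neutral amino acids that needs no heavy chain, had 634, 684 and 684 counts. Its ratios of 0.904 (0.81 to 1.01) and 1.002 (0.9 to 1.12) had intervals that included 1, so a difference from PBS was not detectable at this depth. SLC7A5 and SLC43A1, which both take up leucine, stood at different count ratios over PBS in each antagonist library. Their intervals did not overlap, but these cover counting error only. With the trend in GC content and length taken out, log2 ratios for A740003 were -0.58 for SLC7A5 and 0.04 for SLC43A1, against -1.30 and -0.15 before. For A438079 they were -0.38 and 0.18, against -0.96 and 0.003.

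SLC1A4 and SLC1A5 are sodium-dependent exchangers of neutral amino acids, with serine and alanine typical of the first and glutamine of the second. SLC1A4 (ENSG00000115902; chromosome 2, 64988477 to 65023865, plus strand) had 487 counts with A740003, 600 with A438079 and 877 with PBS. It was lowest with A740003, at a ratio of 0.542 (0.484 to 0.606), which was called lower. With A438079 the ratio of 0.685 (0.617 to 0.761) was just inside the 1.5-fold limit and was not called. SLC1A5 (ENSG00000105281; chromosome 19, 46774883 to 46788594, minus strand) had 1751, 1762 and 2227 counts, estimates that were not whole before rounding in the antagonist libraries. Its ratios of 0.767 (0.72 to 0.817) and 0.793 (0.744 to 0.844) were below 1, not called, and close to each other. With the trend in GC content and length taken out, the log2 values of SLC1A5 turned to 0.04 and 0.06. The 250 bases before the second annotated start of SLC1A4, chr2:64989149-64989398 on the plus strand, hold 38 CG dinucleotides (capitals) and have a GC content of 79.6%, the same as those of SLC7A5. The longest SLC1A4 transcript is poorer in GC than that of SLC7A5, as given below. Medians over coding transcripts lie closer, at 54.8% for SLC1A4 and 60.3% for SLC7A5.
SLC1A4: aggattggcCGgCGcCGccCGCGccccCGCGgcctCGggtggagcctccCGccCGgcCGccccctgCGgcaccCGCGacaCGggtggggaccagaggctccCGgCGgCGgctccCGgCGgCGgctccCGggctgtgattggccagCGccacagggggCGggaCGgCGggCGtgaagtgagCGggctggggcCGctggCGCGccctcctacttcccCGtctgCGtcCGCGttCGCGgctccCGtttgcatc

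The 3 SLC38 genes, of a family of sodium-coupled neutral amino acid carriers, did not move as a group. SLC38A2 (ENSG00000134294; chromosome 12, 46358189 to 46372867, minus strand), known for induction when amino acids are withdrawn, had 11940 counts with A740003, 11278 with A438079 and 10455 with PBS. Its ratios were 1.11 (1.08 to 1.14) and 1.08 (1.05 to 1.11), above 1 by little and not called. SLC38A1 (ENSG00000111371; chromosome 12, 46183063 to 46270017, minus strand), which lies near SLC38A2 and takes up glutamine, had 5094, 5544 and 4283 counts. It had the highest ratios of the 10 genes, 1.16 (1.11 to 1.21) with A740003 and 1.30 (1.246 to 1.35) with A438079, neither of them called; for A438079, 93.7% of all genes compared had as low a log2 ratio or lower. SLC38A10 (ENSG00000157637; chromosome 17, 81245000 to 81295547, minus strand), a carrier of glutamine and other amino acids, had 226 counts with A740003, 294 with A438079 and 459 with PBS. Both antagonist libraries were below PBS, with ratios of 0.48 (0.408 to 0.564) and 0.642 (0.552 to 0.745), both called lower. Both calls ended with the trend in GC content and length taken out, at log2 values of -0.10 and 0.05.

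The 2 antagonists were given at the same dose for the same time and were compared directly, as 1 pair of libraries. None of the 10 genes was called higher or lower, where 2.44% of all genes were called higher and 2.81% lower in A740003 over A438079. Counting intervals lay below 1 for 4 genes and above 1 for 2, where they did so for 17.3% and 15.6% of all genes. SLC38A10 stood at 0.748 (0.626 to 0.893), SLC7A5 at 0.79 (0.716 to 0.871), SLC1A4 at 0.79 (0.7 to 0.892) and SLC38A1 at 0.895 (0.861 to 0.929) times A438079. SLC3A2 was at 1.08 (1.02 to 1.15) and SLC38A2 at 1.03 (1.004 to 1.06). SLC38A10, SLC7A5 and SLC1A4 are the genes called lower in A740003 over PBS. The A740003 library enters that comparison and this one, so their ratios here are no separate check. For SLC38A10 the log2 ratio over A438079 was -0.42 from counts and -0.13 from FPKM (pseudocount 0.1). That of SLC3A2 was 0.11 from counts and -0.016 from FPKM, on the other side of 0. For SLC1A5 (0.967), SLC7A1 (0.928), SLC7A6 (0.978) and SLC43A1 (0.902) the interval included 1. Without replicates, none of these differences can be set against the spread between cultures.

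Ratios over PBS moved with the GC content of transcripts over the whole table, and the transporter genes differ widely in it. Genes were split into 4 groups of equal size by GC content. In the group with the highest content, at least 55.4%, 29.5% were called lower with A740003 and 26.6% with A438079, and median log2 ratios were -0.26 and -0.27. In the group with the lowest, 2.15% and 1.51% were called lower, and medians were 0.11 and 0.12. The highest group holds SLC38A10 (64.3%), SLC1A5 (61.3%), SLC7A5 (61.1%), SLC43A1 (58.2%) and SLC3A2 (57.4%). The lowest group holds SLC38A2 (38.1%) and SLC38A1 (41.3%), the genes whose intervals were above 1 for both antagonists. SLC1A4 (46.5%) and SLC7A6 (47.0%) and SLC7A1 (52.7%) lie in between. The part of GC content in these ratios was not tested beyond the values that follow.

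**Figure D3:**
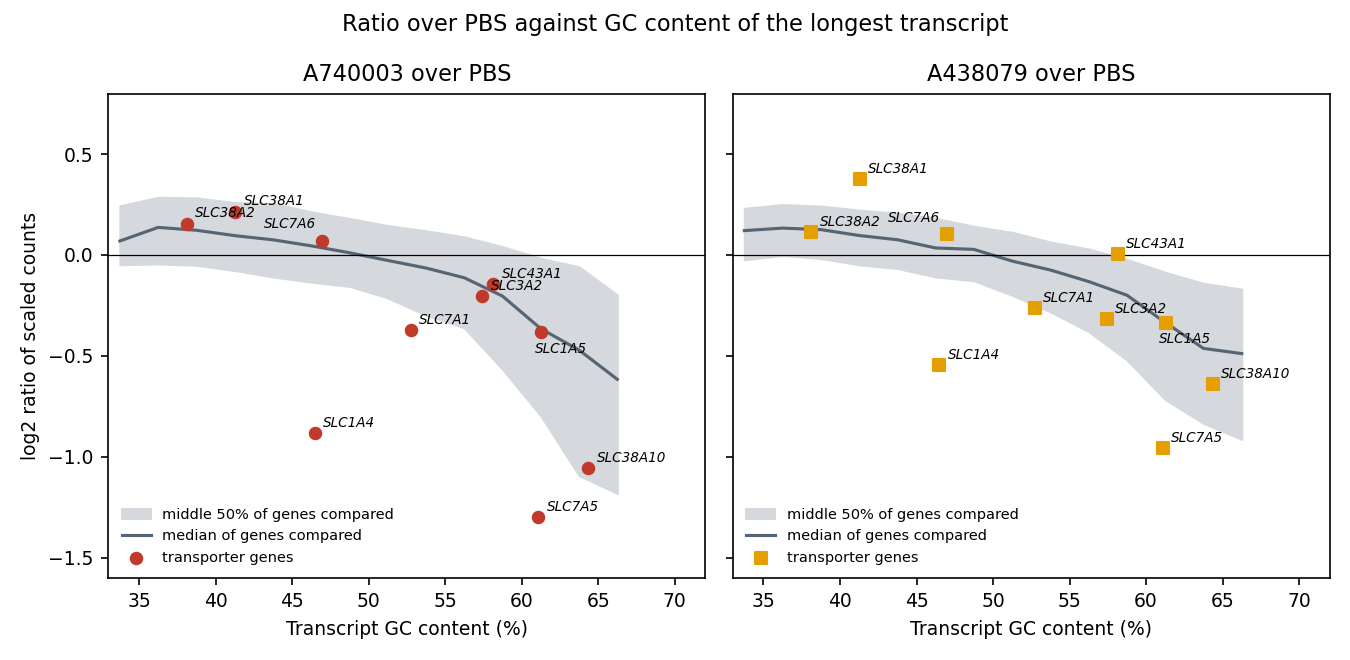
Log2 ratios over PBS against the GC content of the longest GENCODE transcript, with A740003 at left and A438079 at right; the line is the median and the band the middle 50% of genes compared, in bins of GC content. SLC1A4, at 46.5% GC, lies well below the band in both panels and SLC7A5, at 61.1%, below it in both, while SLC38A10, at 64.3%, lies within it.

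To set each gene beside genes of like composition, the median log2 ratio of its 201 nearest genes by rank of GC content and of length was subtracted. SLC1A4, whose neighbours had medians of 0.10 and 0.07, then stood at log2 values of -0.98 for A740003 and -0.62 for A438079, and was called lower for both. SLC7A5, whose neighbours had medians of -0.72 and -0.58, stood at -0.58 and -0.38, still below 0 and no longer called. SLC38A10, whose neighbours had medians of -0.95 and -0.69, stood at -0.10 and 0.05. The other 7 genes lay between -0.24 and 0.22. SLC1A4 was therefore the 1 gene of the 10 called lower on this scale for each antagonist, where 6.73% of all genes with both values were called lower for A740003 and 4.9% for A438079.

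The result for SLC38A10, and the call of SLC1A4 for A438079, turned on which transcript stood for the gene. The longest SLC38A10 transcript is 4300 bases, the median over its 6 coding transcripts is 835 bases, and the length implied by the deposited values was 2295 to 2741 bases. With medians over coding transcripts, SLC38A10 stood at -0.86 for A740003 and -0.44 for A438079, SLC1A4 at -0.76 and -0.43, and SLC7A5 at -0.44 and -0.25. SLC1A4 and SLC38A10 were then called for A740003 (7.26% of all genes) and none of the 10 for A438079 (5.22%). With implied lengths, SLC38A10 stood at -0.11 and 0.12, SLC7A5 at -0.30 and -0.16, and SLC1A4 at -0.99 and -0.65. SLC1A4 was again the single gene called, where 6.76% and 4.95% of all genes were. SLC1A4 and SLC7A5 stayed below 0 under the 3 choices for both antagonists.

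Of 40 further genes for plasma membrane and lysosomal amino acid transporters, 19 were expressed at 1 CPM or more. None of the 19 was called higher; 3 were called lower with A740003 and 1 with A438079, where 10.7% and 9.44% of all genes were. Their median log2 ratios were -0.05 and -0.09. The called genes, SLC38A4, SLC7A10 and SLC16A10, all had under 5 CPM and are named after their values were seen, as are SLC7A2 and SLC7A11. SLC38A4, a carrier of neutral amino acids in liver, had 54, 83 and 93 counts with A740003, A438079 and PBS, and SLC16A10, a carrier of aromatic amino acids, had 43, 41 and 73. By FPKM, SLC16A10 lay the other way, at 0.61, 0.61 and 0.36, above PBS with both antagonists. The highest by FPKM was SLC38A5, a glutamine carrier, at 39.77, 35.51 and 52.59 FPKM, with count ratios of 0.824 (0.751 to 0.903) and 0.78 (0.71 to 0.857). SLC38A9, the lysosomal arginine sensor, had 746, 644 and 544 counts and ratios of 1.34 (1.196 to 1.497) and 1.19 (1.06 to 1.33). SLC38A6 had 363, 430 and 470 counts and ratios of 0.753 (0.655 to 0.866) and 0.917 (0.802 to 1.05). These values lay on both sides of 1, as those of the 10 genes did.

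**Figure D4:**
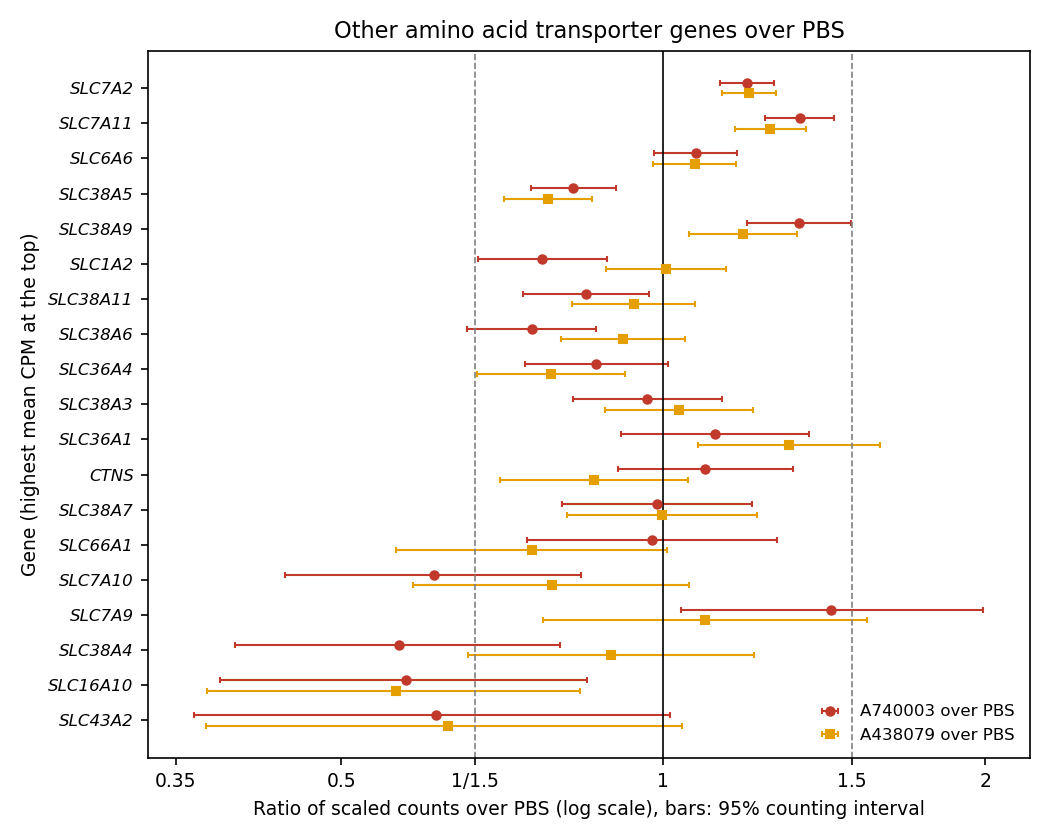
Ratios of scaled counts over PBS on a log scale for the 19 further transporter genes at 1 CPM or more, with circles for A740003, squares for A438079 and bars for 95% counting intervals; the dashed lines mark 1.5-fold. The genes are ordered by mean CPM, and the 3 called genes are among the lowest 5, where intervals are wide.

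Mitochondrial carriers, synthesis enzymes and regulators of the amino acid response were mostly not called, as were all genes compared, of which 10.7% were called lower with A740003 and 9.44% with A438079. Of 7 mitochondrial carrier genes compared, 1 was called lower with each antagonist, SLC25A22, a glutamate carrier at 21, 28 and 48 counts that is named after its values were seen. Its FPKM was 0.62, 2.03 and 1.21, so by FPKM it lay above PBS with A438079. Of 17 genes for synthesis enzymes, 1 was called lower with A740003 and none with A438079: GPT2, which links alanine to glutamate in mitochondria, had 1149, 1338 and 1949 counts and ratios of 0.575 (0.534 to 0.619) and 0.688 (0.641 to 0.738). ASNS, asparagine synthetase and a standard marker of amino acid shortage, had 2169, 2234 and 2108 counts and is named for that role; its ratios of 1.004 (0.945 to 1.07) and 1.06 (0.999973 to 1.13) had intervals that included 1. Of 13 regulator genes, 1 was called lower with A740003 and 2 with A438079. TRIB3, a pseudokinase induced by ATF4, had 410, 403 and 867 counts and ratios of 0.461 (0.409 to 0.519) and 0.466 (0.413 to 0.525). NUPR1, a stress-induced nuclear protein, had 150, 99 and 169 counts and ratios of 0.866 (0.69 to 1.09) and 0.587 (0.453 to 0.757). ATF4 itself had 6491, 5875 and 5850 counts, at ratios of 1.08 (1.04 to 1.12) and 1.01 (0.97 to 1.04).

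Among 21 genes for amino acid sensing and mTORC1, 1 was called higher and 4 lower with A740003, and none higher and 3 lower with A438079. Over all genes these shares were 3.14% and 10.7% with A740003, and 1.63% and 9.44% with A438079. RPTOR, the mTORC1 scaffold, had 109, 164 and 307 counts and ratios of 0.346 (0.276 to 0.432) and 0.535 (0.44 to 0.649). SESN2, a leucine sensor, had 121, 139 and 205 counts and ratios of 0.576 (0.456 to 0.724) and 0.679 (0.544 to 0.847), of which the first was called. The other called genes had under 5 CPM: TSC2 and NPRL3 were lower with both antagonists, and SESN3, at 49, 14 and 15 counts, was higher with A740003. With the trend in GC content and length removed, TRIB3 stood at log2 values of -0.86 and -0.82, GPT2 at -0.65 and -0.39, RPTOR at -0.48 and -0.17, SESN2 at -0.41 and -0.22, and NUPR1 at -0.24 and -0.77. RPTOR and SESN2 were then within 1.5-fold of PBS. Of the genes under 5 CPM, TSC2 stood at -0.98 and 0.09, above 0 for A438079, NPRL3 at -0.25 and -0.41, and SESN3 at 1.42 for A740003. ASNS and ATF4 lay near 0 or above it, at -0.00025 and 0.15 for A740003 and at 0.07 and 0.06 for A438079.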

How the data were processed

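RNA was extracted with an RNeasy kit and made into libraries with a SMARTer kit, per the labels' protocols. The authors deposited expected counts and FPKM values per gene, with 33.3% to 35.1% of counts above 0 not whole. The submitters' processing notes name GRCm38, a mouse build, although nearly all rows carry human Ensembl identifiers (116 carry none and hold at most 0.0853% of counts), so the build is unclear. The aligner, counter, annotation and use of strand were not stated in the labels or file headers, so overlapping and antisense genes are uncertain.

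The expected counts, which the deposited table gives as estimates, were rounded, as the design assumed raw counts, and scaled with TMM (edgeR 4.0.16, R 4.3.3; factors 1.01, 0.989 and 1.002 for A740003, A438079 and PBS). A gene was compared where its mean reached 1 CPM (19.4 to 19.9 counts); the median gene had 431 to 445 counts. Log2 ratios used a pseudocount of 0.5 counts. Intervals are exact conditional binomial (Clopper-Pearson) intervals. No p-value was computed. Transcript GC content and length came from GENCODE release 29 for 11906 genes (97.0%), and start-site windows from RefSeq (GRCh38.p14). Coordinates of genes are those of GENCODE 29 on GRCh38 by identifier. The implied length is the count divided by the FPKM and the library total, in bases.

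All 10 genes were named. From each further list, up to 4 members called in either comparison with PBS with a mean of at least 5 CPM were named, and from the further transporters also the 3 with the highest FPKM; other names were chosen after values were seen. The genes and lists were chosen with earlier results of these data known. Listed genes that were not found are not analysed here. The steps were tested on simulated data with counting error only. Those data held no spread between cultures, and GC content and length in them were drawn at random. Alternatives were scaling by DESeq2 1.42.0 size factors, total counts or the upper quartile, other filters, folds and intervals, unrounded counts, FPKM with pseudocounts of 0.1 and 1, mitochondrial-genome genes left out of totals, and the GC and length trend removed. Further lengths for that trend were added after seeing the data. Calls from FPKM used the ratio alone, with no interval, and those from unrounded counts kept the intervals of the rounded counts.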

Additional observations from a re-analysis of the deposited data

How the results depend on the processing

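With total counts, DESeq2 size factors, upper quartile scaling, other filters, unrounded counts, FPKM, a 99% interval or mitochondrial-genome genes left out, the counts of transporter genes called in each comparison stayed within 1.5 times those reported. With the trend in GC and length removed, the number called lower was 1 for A740003 and 1 for A438079 (SLC1A4), and median log2 ratios were -0.057 and -0.0022. With medians over coding transcripts, an alternative chosen after seeing the data, 0 were called lower for A438079, and medians were -0.14 and -0.15. With implied lengths, also chosen after seeing the data, 1 was called lower for each antagonist, and medians were -0.088 and -0.044. SLC38A10 with A438079 changed sign, to 0.052 with the longest transcript and 0.12 with implied lengths. SLC1A5, not called, also changed sign with those lengths, to 0.037 and 0.198 for A740003 and 0.060 and 0.226 for A438079. SLC7A6, SLC38A1, SLC38A2 and SLC43A1, not called, changed sign for 1 or both antagonists under some alternatives. In A740003 over A438079, SLC3A2 changed sign with FPKM and SLC1A5 under 1 alternative, neither of them called. A fold of at least 2 left 0 called for A438079. The lowest fold threshold tried gave 5 lower for A740003, 4 lower and 1 higher (SLC38A1) for A438079, and 3 lower for A740003 over A438079. Over all genes, 1313 were called lower with A740003 and 1158 with A438079, and 801 and 583 with the trend removed, 864 and 622 with coding medians, 805 and 589 with implied lengths, 670 and 459 at a fold of 2, and 2059 and 1842 at the lowest fold. The trend step moved the share of calls that were lower from 77.3% to 65.9% and from 85.3% to 71.4%. The cause was not tested. No paired analysis was possible because each treatment has 1 library, and no library could be left out for the same reason.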
